A study of Drosophila melanogaster with 2 samples.

Results

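The regions described here were all rows on chromosome 4, the dot chromosome of Drosophila melanogaster, in the lists of regions deposited for each of 2 libraries of Pumilio (Pum) chromatin immunoprecipitation followed by sequencing (ChIP-seq). They numbered 42 of 30000 rows in the list of replicate 2 and 201 of 30000 rows in that of replicate 3, so 243 of 60000 rows in all, and they were chosen by chromosome alone. Both libraries came from whole embryos of mixed sex collected from 0 to 24 h of development. The embryos were of strain Pum-MiMIC-GFP, a line in which an intronic eGFP exon makes a Pum-GFP fusion from the pum locus, and the antibody was raised against GFP. Chromatin was sheared by sonication to 200 to 800 bp. The 2 biological replicates shared strain, stage, tag and antibody and formed 1 group, so no condition was compared with another and no test over samples could be made. All embryonic tissues were mixed, 1 tagged line was used, and a control precipitation was not analysed here.

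Chromosome 4 is small and largely packaged as heterochromatin, rich in transposable elements and bound by HP1a, yet it carries active genes between the repeats. A protein specific to this chromosome, POF, coats those genes. Pum is an RNA-binding translational repressor that recognises a short element in the 3' UTRs of its target mRNAs, and it is best known in the embryo for acting on maternal hunchback mRNA.

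Each list ranked its regions by the signal value that the authors deposited, with rank 1 the strongest, and a rank refers only to its own list. The lists held peaks together with background regions. The signal ran from 13.7 to 1547 in replicate 2 and from 11.04 to 943 in replicate 3, and the deposited −log10 q-value ran from 0.0212 to 3.70 and from 0.0846 to 3.88. The authors also deposited a list of 26275 rows called on both alignments together, named pooled here, and an optimal list of 3970 rows that passed their reproducibility threshold. The 3970 highest ranks of each replicate list, as many as the optimal list held, are called its strongest rows. Read depth is unknown. The 95% Wilson intervals given for shares cover counting error over regions or genes only, since regions of 1 library share their source. Where a count was 0, the limit given in place of an interval is the share that 3 counts would make.

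The summit sequences of 7 sites are shown because the results below turn on them, as 101 bases of the plus strand of dm6 read from the RefSeq copy of that assembly. The first line is the site of the best mean rank, chr4:424766-424866, an intergenic summit 1251 bp upstream of lncRNA:CR43437. The Sox102F line, chr4:807512-807612, is the best-ranked promoter. The zfh2 line, chr4:497878-497978, and the PlexA line, chr4:1027224-1027324, belong to sites with unlike ranks in the 2 lists. The ey line, chr4:697575-697675, is a promoter found in both lists, and the gw line, chr4:660089-660189, and the RpS3A line, chr4:67228-67328, are promoters found in the list of replicate 3 only. Capitals mark matches on either strand to the motifs searched, which here were the Pum element TGTANATA, the GAGA factor repeat GAGAG and the CGATA core of the DNA replication-related element.
lncRNA:CR43437: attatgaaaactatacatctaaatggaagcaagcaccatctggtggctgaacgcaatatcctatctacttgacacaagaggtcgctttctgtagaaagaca
Sox102F: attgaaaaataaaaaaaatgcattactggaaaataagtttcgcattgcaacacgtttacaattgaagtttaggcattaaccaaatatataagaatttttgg
zfh2: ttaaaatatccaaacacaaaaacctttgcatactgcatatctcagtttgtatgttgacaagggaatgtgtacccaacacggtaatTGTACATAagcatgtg
PlexA: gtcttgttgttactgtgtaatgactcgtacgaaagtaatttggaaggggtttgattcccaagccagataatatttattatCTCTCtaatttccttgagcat
ey: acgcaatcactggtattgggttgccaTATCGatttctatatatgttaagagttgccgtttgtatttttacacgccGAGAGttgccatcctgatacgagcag
gw: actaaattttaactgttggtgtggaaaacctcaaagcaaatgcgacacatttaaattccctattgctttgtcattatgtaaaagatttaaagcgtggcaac
RpS3A: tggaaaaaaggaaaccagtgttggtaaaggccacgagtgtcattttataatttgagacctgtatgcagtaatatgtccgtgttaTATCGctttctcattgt
The summits of lncRNA:CR43437, Sox102F and gw held none of the motifs in these 101 bases, and the zfh2 line was the only one of the 7 with a Pum element.

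Chromosome 4 held few regions for its length, and the 2 lists differed there by more than on any other arm. Its rows made up 0.14% of the replicate 2 list (0.104 to 0.189%) and 0.67% of the replicate 3 list (0.584 to 0.769%), against 1.01% of the bases of the 6 arms. The density was 3.12 regions per 100 kb in replicate 2 and 14.9 in replicate 3, while the other 5 arms ranged from 20.2 to 23.9 and from 21.5 to 23.3. Replicate 3 thus listed 4.79 times as many regions on chromosome 4 as replicate 2, and the same ratio lay between 0.945 and 1.06 on the other arms. In the pooled list chromosome 4 had 56 rows, or 4.15 per 100 kb against 18.7 to 20.7 elsewhere, and in the optimal list it had 14 rows, or 1.04 per 100 kb against 2.74 to 3.23.

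**Figure D1:**
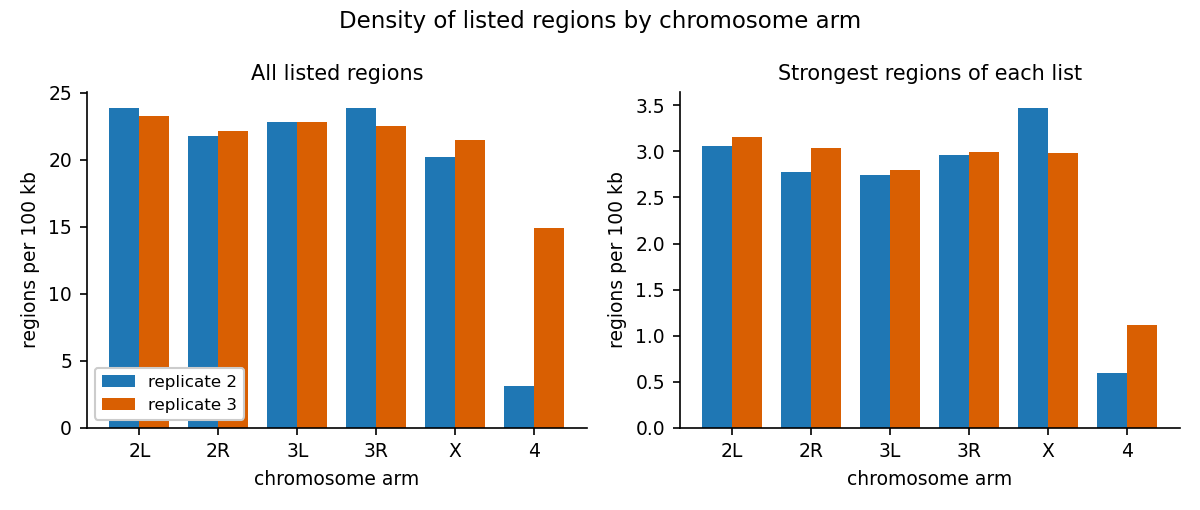
Regions per 100 kb on each chromosome arm in the list of replicate 2 and the list of replicate 3, for all rows (left) and for the 3970 strongest rows of each list (right). Chromosome 4 is lowest in all 4 series, with 3.12 and 14.9 regions per 100 kb over all rows.

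Among the strongest rows the gap between the lists was smaller. Chromosome 4 had 8 of the strongest rows in replicate 2 and 15 in replicate 3, from lists of which 13.2% of all rows counted as strongest. These were 0.593 and 1.11 regions per 100 kb, below the 2.75 to 3.47 and the 2.79 to 3.16 of the other arms. The best rank on the chromosome was 202 in replicate 2 and 184 in replicate 3, and the median ranks were 14112.5 and 15987. A q-value of at most 0.05 was listed for 11 of the 42 rows of replicate 2 (26.2%, 15.3 to 41.1%), where 19.0% of all rows had one. In replicate 3 it was listed for 36 of the 201 rows (17.9%, 13.2 to 23.8%), where 28.6% of all rows had one.

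The rows of replicate 2 did not cover the whole chromosome. Its first summit lay at 396104 and its last at 1178559, whereas summits of replicate 3 ran from 42303 to 1233250, on a chromosome of 1348131 bp. In the first 300 kb replicate 2 had 0 rows and replicate 3 had 28, among them the promoters of ci, the Gli-family effector of Hedgehog signalling, pan, the TCF factor of Wnt signalling, and RpS3A, a small-subunit ribosomal protein gene. From 500 to 600 kb, the stretch that holds zfh2, the counts were 0 and 20, and from 600 to 700 kb they were 2 and 30. In each of these stretches most of the replicate 3 rows had a q-value above 0.05. The named promoters of ci, pan and RpS3A were among the few rows at or below it. Only from 700 to 800 kb, in ey and in the long muscle gene bt, which encodes projectin, did replicate 2 list more rows, 13 against 12. The best ranks there were 7287 in replicate 2 and 10663 in replicate 3, and no row there had a q-value of at most 0.05. Past 1200 kb replicate 2 had 0 and replicate 3 had 6. Annotated transposable elements covered between 15.6 and 25.5% of each 100 kb bin up to 1200 kb, 43.5% of the next bin and 95.4% of the remaining end, where neither list had a row.

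Of the 42 rows of replicate 2, 16 (38.1%, 25 to 53.2%) had a replicate 3 summit within 100 bp, against 33.8% of all rows of that list. Of the 201 rows of replicate 3, the same 16 sites made up 7.96% (4.96 to 12.5%), against 33.8% of all rows of that list. With 42 rows of replicate 2 to pair with, at most 42 of the 201 could be in mutual pairs. The low share thus restates in part the gap in row counts. At equal rank the matched shares of replicate 2 on chromosome 4 lay near those of other arms, and those of replicate 3 lay below them. All 8 of its strongest rows had a replicate 3 summit (90.8% over all strongest rows), and so did 4 of its 8 rows ranked 3971 to 10000, where the share on other arms was 50.3%. Of the 15 strongest rows of replicate 3 only 7 had a replicate 2 summit (85.7% over all strongest rows). The shares in replicate 3 fell to 6 of 33 rows ranked 3971 to 10000, or 18.2% against 45.5% on other arms, and to 2 of the 78 rows between ranks 10000 and 20000, or 2.56% against 23.7%. The shares of replicate 3 in all bands draw on the same 42 rows of replicate 2 and are not separate evidence of disagreement. Only the bands ranked 10001 to 20000 and 20001 to 30000, of 78 and 75 rows, held more than 42 rows. These rank bands were chosen after the data had been seen.

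Across the 16 matched sites the ranks correlated with a Spearman rho of 0.768, and across the 10131 matched sites of other arms with 0.730. The sites share the 2 libraries, and rho is a description. The site of the best mean rank was the intergenic summit at 424816, 1251 bp upstream of the non-coding gene lncRNA:CR43437 (FBgn0263385, 426067 to 426601). It ranked 202 with a signal of 275.7 in replicate 2 and 288 with a signal of 163.9 in replicate 3. Sox102F (FBgn0039938, 800436 to 834393), which encodes a Sox-family transcription factor, followed with a summit at 807562, inside the gene and 215 bp upstream of one of its starts. Its signals were 133.5 at rank 865 in replicate 2 and 132.4 at rank 456 in replicate 3. Both sites stood high in both lists.

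A further 4 sites lay among the strongest rows of both lists, so that 6 of the 8 strongest rows of replicate 2 had a summit among the strongest of replicate 3, against 68.2% over all strongest rows. A summit at 982957, 4468 bp upstream of fuss (FBgn0039932), a gene of the Ski/Sno family of transcriptional cofactors, had signals of 90.1 at rank 1590 and 74.6 at rank 1363 in replicates 2 and 3. A summit at 489496, 502 bp upstream of the protein kinase gene Asator (FBgn0039908) and so just outside its promoter window, had 92.7 at rank 1524 and 58.9 at rank 2041. A summit at 407028, 6263 bp upstream of the microRNA gene mir-9385, had 63.4 at rank 2556 and 57.7 at rank 2107. The ranks of these 3 sites were close in the 2 lists. The other site, at 497928 and 3882 bp upstream of zfh2 (FBgn0004607), which encodes a zinc-finger homeodomain protein, ranked 3131 with a signal of 53.7 in replicate 2 and 224 with 182.0 in replicate 3. Of these 6 sites 5 were intergenic and the promoter of Sox102F was the sixth.

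The other matched sites were mostly promoters. The promoter of PlexA (FBgn0025741, 1009895 to 1027101), a semaphorin receptor gene of axon guidance, had its summit at 1027274, 173 bp upstream of a start, with a signal of 104.3 at rank 1283 in replicate 2 and 34.3 at rank 4806 in replicate 3. One summit at 1031049 lay within 500 bp of starts of both CG11076 and ATPsynbeta, the gene of the beta subunit of mitochondrial ATP synthase, and had 59.9 at rank 2729 and 28.1 at rank 6492. The Pax6 gene ey (FBgn0005558, 697689 to 721173) had a summit at 697625, 64 bp upstream of its start, with 34.2 at rank 5445 and 48.9 at rank 2806. PlexA and the CG11076 site ranked higher in replicate 2, and ey ranked higher in replicate 3. The promoter of mir-9385 at 400961 ranked 4108 and 15497, and that of apolpp, which encodes the main lipoprotein of the haemolymph, ranked 8223 and 7277 at 1064424. The promoter of Mpv17, whose mammalian counterpart is a mitochondrial inner membrane protein, ranked 10872 and 8865 at 1029410. The last 4 sites were outside the strongest rows of both lists. They were 2 summits in 1 INE-1 element upstream of fuss, at 980278 and 980591, a second ey promoter in another INE-1 element at 707109, and a coding exon of apolpp at 1067238.

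**Figure D2:**
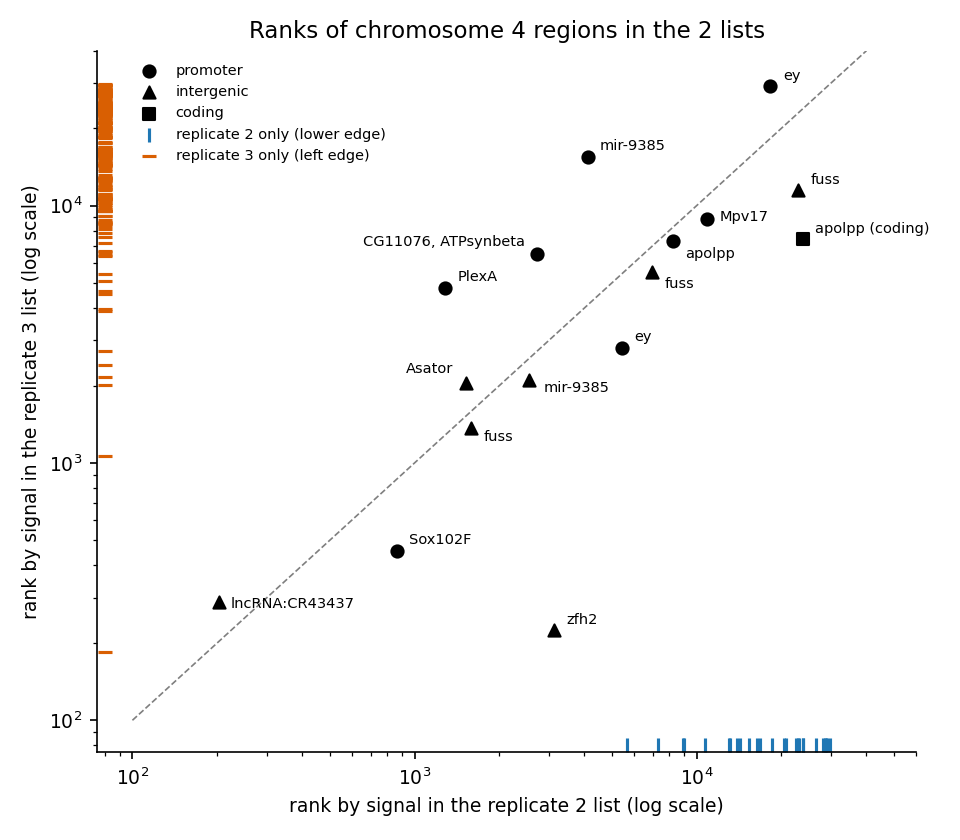
Rank in the list of replicate 2 (x axis) against rank in the list of replicate 3 (y axis), both on log scales with small ranks strongest, for the 16 chromosome 4 sites matched within 100 bp, named by the gene at the site or with the nearest start. Ticks on the lower and left edges are the 26 rows found in replicate 2 only and the 185 found in replicate 3 only, and the dashed line marks equal ranks.

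Of the 15 strongest rows of replicate 3, 8 had no replicate 2 summit within 100 bp. The highest, at 1113311, was also the best-ranked row of the chromosome in that list, with rank 184 and a signal of 197.0. It lay where the annotated 3' UTRs of sv (FBgn0005561, a Pax2-family gene, plus strand) and Cals (FBgn0039928, which encodes the neuronal membrane protein calsyntenin, minus strand) overlap, and the nearest replicate 2 summit was 30377 bp away. The pooled list held this site at rank 313. The promoter of gw (FBgn0051992, 649041 to 660608), the GW182 protein of microRNA silencing, ranked 1060 at 660139 with a signal of 85.6. An intronic summit of Asator at 486747 ranked 2012 with 59.3, and a second Sox102F summit at 807768, 206 bp from the nearest replicate 2 summit, ranked 2167 with 56.8. The promoter of RpS3A (FBgn0017545, 65225 to 67207) ranked 2413 at 67278 with 53.5, and its nearest replicate 2 summit was 328826 bp away.

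The promoters of Hcf, which encodes a chromatin cofactor, and of CG31999 ranked 2718 and 3902 in replicate 3, and an intron of zfh2 at 505592 ranked 3962. Hcf and CG31999 were the 2 of the 15 strongest rows with no pooled summit within 100 bp either, against 3.55% over all strongest rows of that list. The rows of replicate 2 without a partner began lower. The best was a promoter summit of lgs, the BCL9 cofactor of Wnt signalling, at 444088, with rank 5681 and a signal of 33.1. It was followed by coding summits in bt (rank 7287), Actbeta, which encodes an activin-like ligand (rank 8972), and lgs (rank 9027), and by the promoter of CG32017 (rank 10689).

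All 14 optimal rows on chromosome 4 had a summit of at least 1 replicate list within 100 bp. Of these, 9 had one in both lists, which was 64.3% against 94.4% on other arms, and 5 had one in replicate 3 only, or 35.7%, where the share over all optimal rows was 2.59%. Those 5 were the sites of sv and Cals, gw, RpS3A, the intron of Asator and the second Sox102F summit. None of the 14 was found in replicate 2 only, and over all optimal rows only 121 of 3970 were, so the absence among 14 rows says little. Ordered by the authors' pooled signal, the leading rows were lncRNA:CR43437 at 440.0, Cals and sv at 377.6, Sox102F at 268.2, zfh2 at 237.8 and RpS3A at 173.5.

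Promoters, here all bases within 500 bp of a transcript start in the annotation, cover 10.7% of chromosome 4. They held 11 of the 42 summits of replicate 2 (26.2%, 15.3 to 41.1%), against 23.8% over all rows of that list. They held 78 of the 201 summits of replicate 3 (38.8%, 32.3 to 45.7%), against 32.1% over all rows of that list, and 8 of the 16 matched sites (50%, 28.0 to 72.0%). The promoter share of matched sites on other arms was not counted. Among the strongest rows of other arms promoters held 52.6% in replicate 2 and 53.2% in replicate 3, so the 50% is not shown to be particular to chromosome 4. Introns, 42.6% of the bases, held 11 summits in replicate 2 (26.2%, 15.3 to 41.1%), against 33.2% over all rows, and 50 in replicate 3 (24.9%, 19.4 to 31.3%), against 35.2% over all rows. Coding sequence, 18.0% of the bases, held 11 summits in replicate 2 (26.2%, 15.3 to 41.1%), against 19.3% over all rows, and 22 in replicate 3 (10.9%, 7.34 to 16.0%), against 12.5% over all rows. The coding shares of chromosome 4 were thus near those of the whole lists. The 11 coding summits of replicate 2 all ranked below its strongest rows and lay in bt, apolpp, lgs, Actbeta and gw. The 3' UTRs outside promoters, 7.96% of the bases, held 9 summits of replicate 3 (4.48%, 2.37 to 8.29%), against 2.86% over all rows. In replicate 2 they held 0 of 42, which allows a share of up to 7.14%, against 2.32% over all rows.

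Among the strongest rows intergenic sites were prominent. They made up 5 of the 8 in replicate 2 (62.5%, 30.6 to 86.3%) and 5 of the 15 in replicate 3 (33.3%, 15.2 to 58.3%), while on other arms 12.9% and 12.01% of the strongest rows were intergenic. The 5 were the same matched sites in both lists, so these shares are not separate observations. Among them the Asator summit of replicate 2 lay 502 bp from a start, just outside the promoter window. Introns held 0 of the 8, which allows up to 37.5%, and 2 of the 15, against 32.3% and 32.8% on other arms. Both differences rest on few rows, and their intervals are wide.

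**Figure D3:**
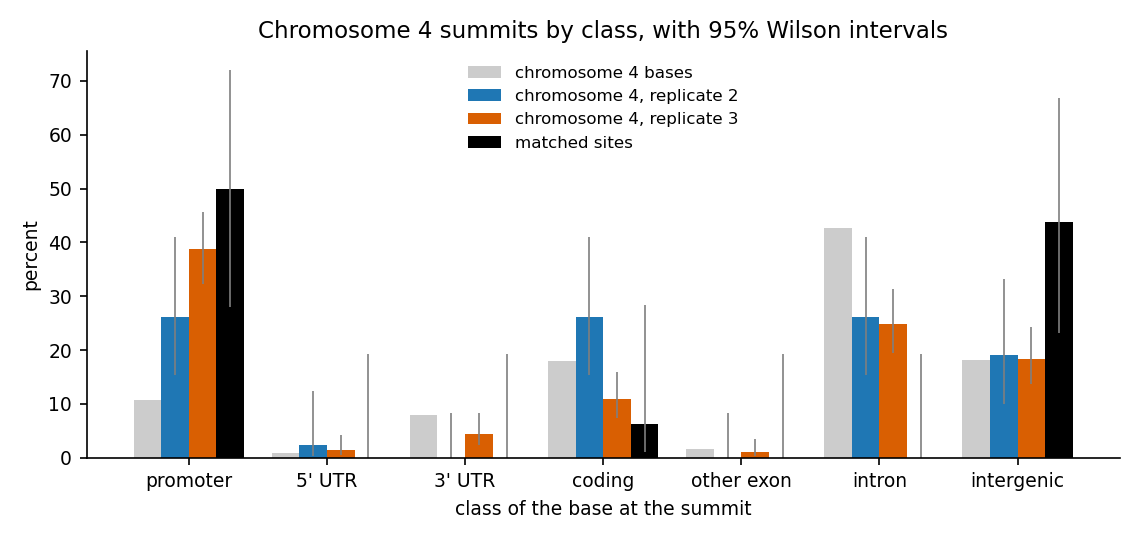
Percent of chromosome 4 bases (grey) and of summits of replicate 2, of replicate 3 and of the 16 matched sites in each annotation class, with 95% Wilson intervals as error bars. Promoters hold 10.7% of the bases, 26.2 and 38.8% of the summits of the 2 lists and 50% of the matched sites. Matched sites of other arms are not shown.

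Annotated transposable elements held 8 of the 42 summits of replicate 2 (19.0%, 9.98 to 33.3%), where the share over all rows was 0.500%, and 26 of the 201 of replicate 3 (12.9%, 8.98 to 18.3%), where it was 0.420%. These elements cover 24.8% of the bases of chromosome 4, which lies inside the interval of replicate 2 and above that of replicate 3. On the other arms they cover 5.74% of the bases and held 0.474% and 0.336% of the summits. None of the 8 and of the 15 strongest rows was in an element, which allows shares of up to 37.5% and 20%. The short INE-1 element, the most numerous here with 344 copies and 97419 bases, held 5 of the 8 and 16 of the 26 summits. In replicate 2 the others were in gypsy7 inside CG32017 and Kif3C and in jockey2 and Cr1a copies inside pho, a gene of a DNA-binding Polycomb group protein. In replicate 3 the element 1360 held 3 summits, FB 3 and Cr1a 2. In windows of 100 kb the mean was 3.23 rows of replicate 2 and 15.5 of replicate 3 over the 13 whole windows of chromosome 4. Over the 79 windows of other arms with an element share in the same range, 15.6 to 43.5%, it was 12.2 and 11.5. The medians were 1 and 13 rows on chromosome 4 and 10 and 5 in those windows. These windows were compared after the data had been seen, and the part of repeats in the counts was not tested.

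The protein-coding genes of chromosome 4 had promoter summits mainly in replicate 3. Of 80 such genes, 10 had a promoter summit in replicate 2 (12.5%, 6.93 to 21.5%), against 45.5% of all protein-coding genes on the 6 arms. In replicate 3 it was 57 genes (71.25%, 60.5 to 80.01%), against 53.3% of all. Rows of any rank counted, background regions included. A q-value of at most 0.05 was listed for 19 of the 78 promoter summits of chromosome 4 in replicate 3. Over all rows of that list it was listed for 4170 of 9645 promoter summits. Both lists had a promoter summit for 9 genes (11.25%, 6.03 to 20.02%), against 37.0% of all. That share could not exceed the 12.5% of replicate 2. The 9 were Sox102F, PlexA, ey, CG11076, ATPsynbeta, apolpp, Mpv17, CG32017 and dati, and the tenth gene of replicate 2 was lgs. A further 48 genes had a promoter summit in replicate 3 only, or 60.0% (49.0 to 70.0%) against 16.0% on other arms, and 22 had none. Of the 34 non-coding genes and pseudogenes of chromosome 4, 1, mir-9385, had a promoter summit in replicate 2, against 24.7% of all such genes, and 9 had one in replicate 3, against 30.0% of all. Because 12 promoter summits, 1 in replicate 2 and 11 in replicate 3, lay within 500 bp of starts of more than 1 gene, some of these genes share a summit.

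**Figure D4:**
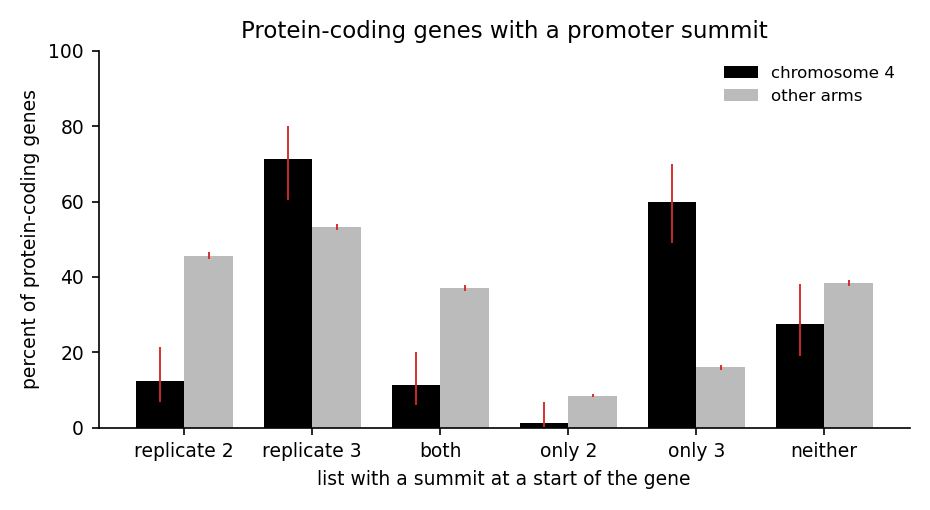
Percent of the 80 protein-coding genes of chromosome 4 (black) and of the 13865 of the other arms (grey) with a promoter summit in replicate 2, in replicate 3, in both, in 1 only or in neither, with 95% Wilson intervals. Chromosome 4 stands at 12.5% in replicate 2 and 71.25% in replicate 3, with summits of any rank counted.

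By role, the 18 developmental transcription factors and cofactors on the list used here included 4 with a promoter summit in replicate 2 (22.2%) and 12 in replicate 3 (66.7%), 3 of them shared. Over the 80 protein-coding genes of the chromosome these shares were 12.5% and 71.25%, as given above, so the list stood near them. The shared genes were Sox102F, ey and dati, the last with ranks of 29763 and 11019. In replicate 3 the promoters of Pur-alpha, ci, pho and pan ranked 4544, 6380, 6617 and 7155, and that of toy, the other Pax6 gene, ranked 21820. The genes sv, fuss, fd102C, Mitf and NfI had no promoter summit in either list, although the strongest replicate 3 summit lay at the 3' end of sv and a site of both lists lay upstream of fuss.

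Of the 14 genes of signalling ligands, receptors and transducers, PlexA alone had a promoter summit in replicate 2 and 10 (71.4%) had one in replicate 3, close to the 71.25% of the whole chromosome, with best ranks from 4806 at PlexA to 14844 at the adaptor gene Crk. PlexB, the other plexin, ranked 8366, the calcium-dependent kinase gene CaMKII ranked 8500 and Actbeta ranked 8530. Ephrin, RhoGAP102A, PIP4K and Ank had none in either list. Of the 13 genes listed for synapse, ion transport and muscle, 0 had a promoter summit in replicate 2 and 7 (53.8%) had one in replicate 3. Their best ranks ran from Slip1 at 5113 to lncRNA:sphinx at 25449, a non-coding gene and so not among the 80 protein-coding ones. The metabotropic glutamate receptor gene mGluR, also counted as a receptor above, ranked 12678. The synaptic release gene unc-13 and the synaptotagmin gene Syt7 had none. Of the 8 genes of translation, RNA silencing and housekeeping, 7 (87.5%) had a promoter summit in replicate 3 and 2, ATPsynbeta and apolpp, in replicate 2. These lists are too short to set any of them apart from the chromosome's other genes. In replicate 3 gw ranked 1060, RpS3A 2413, the DNA repair gene Rad23 8639 and the translation initiation gene eIF4G1 15247, and Arl4 had no promoter summit.

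The 7 protein-coding genes of 30 kb or more, a length chosen after the data had been seen, held unlike numbers of summits inside their span. The 52.1 kb of bt held 6 in replicate 2 and 2 in replicate 3. The order was opposite in the 39.1 kb of zfh2, with 0 and 9, in the 33.96 kb of Sox102F, with 1 and 8, and in the 44.9 kb of pan, with 0 and 3. The 40.9 kb of Cadps, which encodes a protein of vesicle release, and the 30.7 kb of PMCA, which encodes a plasma membrane calcium pump, each held 0 and 1, and the 44.5 kb of unc-13 held none in either list. Few of these rows had a q-value of at most 0.05. In replicate 2 only the Sox102F row at rank 865 had one. In replicate 3 the rows were Sox102F at ranks 456 and 2167, zfh2 at 3962 and pan at 7155. No bt row had one, with best ranks of 7287 in replicate 2 and 22297 in replicate 3.

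The place of promoter summits around the start was as follows. All 11 in replicate 2 lay upstream of the nearest start, at a median of -177 bp. Of the 78 in replicate 3, 44 lay upstream and 34 downstream, at a median of -30.0 bp. On other arms 4421 of 7118 promoter summits of replicate 2 and 5414 of 9567 of replicate 3 lay upstream, at medians of -48.0 and -28.0 bp. Over all rows of chromosome 4 the median distance to the nearest start was 2169.5 bp in replicate 2 and 911 bp in replicate 3.

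**Figure D5:**
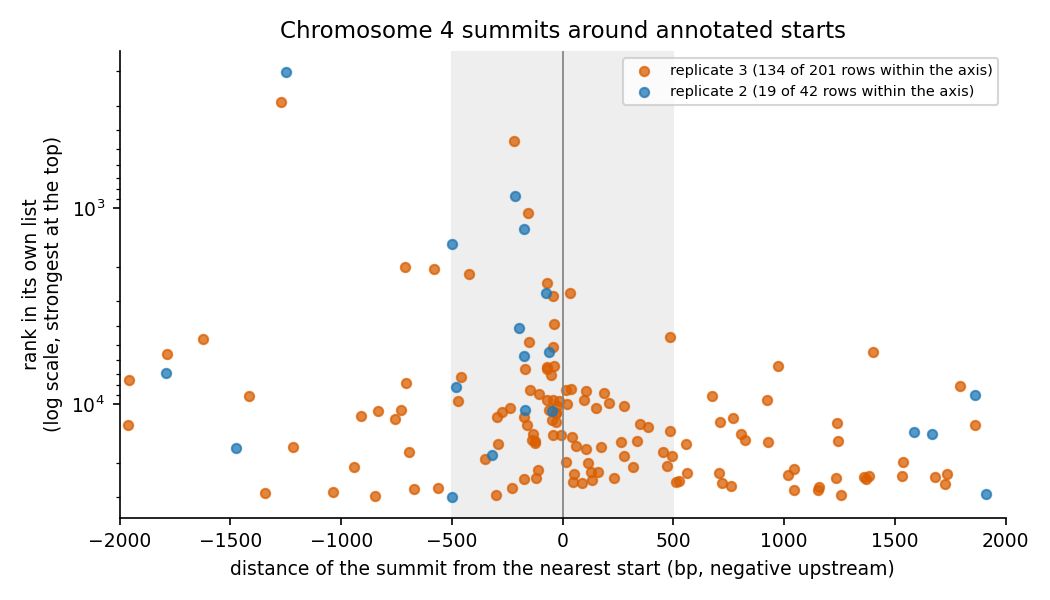
Signed distance of each chromosome 4 summit from the nearest annotated start (x axis, bp, negative upstream) against its rank in its own list (y axis, log scale, strongest at the top), for the 19 of 42 rows of replicate 2 and the 134 of 201 rows of replicate 3 within 2000 bp of a start. The grey band is the promoter window of 500 bp on either side, in which all replicate 2 summits are upstream.

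The promoter share was lowest among the weakest rows of both lists. In replicate 3 promoters held 7 of the 15 strongest rows (46.7%, 24.8 to 69.9%), 21 of 33 rows ranked 3971 to 10000 (63.6%, 46.6 to 77.8%), 35 of 78 ranked next, up to 20000 (44.9%, 34.3 to 55.9%) and 15 of the last 75 (20%, 12.5 to 30.4%). On other arms the same 4 bands had 53.2, 42.7, 28.3 and 21.1%. In replicate 2 the counts were 3 of 8, 4 of 8, 3 of 11 and 1 of 15, and the shares on other arms were 52.6, 29.5, 17.7 and 14.9%. With so few rows the order of the first 2 bands on chromosome 4 cannot be told.

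Sequence motifs were counted in the 201 bases around each summit, on both strands, and each share is set beside that in all 6621 windows of the same length along chromosome 4. The Pum element as DNA, TGTANATA, was in 1 of the 16 matched sites (6.25%), the zfh2 site shown above, in 1 of the 42 windows of replicate 2 (2.38%) and in 20 of the 201 of replicate 3 (9.95%), against 11.1% of all windows. The DNA replication-related element, TATCGATA, was in 1 of the 16 (6.25%), 2 of the 42 (4.76%) and 8 of the 201 (3.98%), against 1.98%. Its core CGATA, which is contained in the longer motif and was added after the data had been seen, was in 3 of the 16 (18.75%), 7 of the 42 (16.7%) and 68 of the 201 (33.8%), against 24.9%. Among the 78 promoter summits of replicate 3 the core was in 34 (43.6%). No share was counted for promoters without a summit or for promoter summits of other arms, so enrichment over promoters was not tested. GAGAG was in 3 of the 16 (18.75%), 5 of the 42 (11.9%) and 36 of the 201 (17.9%), against 17.4%, and the Zelda site CAGGTAG was in 0 of the 16, which allows up to 18.75%, 2 of the 42 and 1 of the 201, against 1.21%. The repeat CACACACA was in 0 of the 42, which allows up to 7.14%, and 4 of the 201 (1.99%), against 1.13%, while on other arms it was in 4.32% and 4.91% of the summit windows of the 2 lists. In the same order, those windows of other arms held the Pum element in 5.47% and 7.43% and TATCGATA in 1.56% and 2.01%. They held CGATA in 21.8% and 24.1%, GAGAG in 23.7% and 24.5% and CAGGTAG in 1.16% and 1.25%. A match is a description of letters and not of a bound site.

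The summit windows of chromosome 4 were poorer in G and C than those elsewhere. The mean GC content was 41.1% in replicate 2 and 37.2% in replicate 3, against 45.9% and 43.0% on other arms and 35.3% over all windows of chromosome 4. The 16 matched sites had a mean of 36.8%. Replicate 2 had the higher GC content on chromosome 4 and on the other arms alike. The part of base composition or depth in the difference between the lists was not tested.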

How the data were processed

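The authors deposited, per the labels and file records, lists of regions on dm6 and dm3 for each of 2 ChIP-seq replicates, a pooled list and an optimal list. The deposited signal is the authors' own value per region, and the deposited −log10 value is that of the q-value. Each per-replicate list was derived from that replicate's alignment and 1 further file common to both, per the deposited file records. No source used here names the peak caller, and neither its settings nor the cut-off for reproducibility are given there. Depth is unknown. Rows were ranked by signal within their own list. Summits were matched within 100 bp, with mutual nearest pairs for sites. Coordinates are 1-based on dm6, with gene models and elements from Ensembl release 115 (BDGP6.54) and sequence from the RefSeq copy of the same assembly. Classes were assigned in the order promoter, 5' UTR, 3' UTR, coding, other exon, intron and intergenic.

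Named were all 16 matched sites (the rule allowed 25), the 5 best-ranked rows of each replicate without a match, and members of 4 gene lists, not all of which are printed. Some further genes were named after their values were seen. The regions and lists were chosen with earlier results of these data known. On the gene lists, 9 symbols for translation and housekeeping named 8 genes, and 1 gene stood on 2 lists. No test was run, since the design has 1 group. The code was tested on simulated data. Alternatives were other match distances, promoter windows, numbers of strongest rows and motif windows, dropping summits within 250 bp of a stronger one, ranking by q-value, the dm3 lists and leaving out each replicate. The tools were Python 3.11.15 with matplotlib 3.10.9, pandas 2.3.3, scipy 1.17.1 and numpy 2.4.6.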

Additional observations from a re-analysis of the deposited data

How the results depend on the processing

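Of 56 alternative values for 17 results, 45 stayed within the spread set for them. For the motif shares this shows little, since they rest on 16 matched windows. The GAGAG share of 18.75% counted as unmoved at 12.5% with shorter windows and at 31.25% with longer ones. Settings that left out 1 replicate used the rows of the other list instead. The share of replicate 2 rows with a replicate 3 summit was 38.1% within 100 bp and 54.8% within 250 bp, and with the rows of replicate 3 as the denominator the 16 sites made up 7.96%. With 2000 strongest rows chromosome 4 held 5 in replicate 2 and 6 in replicate 3, with 3 sites among the strongest of both, and with 8000 it held 13, 31 and 10. Those counts follow from the number of rows admitted. With 1 replicate left out no sites can be matched, so the promoter share of 50% at matched sites has no like value. The share over all chromosome 4 rows of the list that remained was 26.2% for replicate 2 and 38.8% for replicate 3. The 9 genes with a promoter summit in both lists became 10 with replicate 2 alone and 57 with replicate 3 alone, since 1 list then sufficed. With strongest rows only, 1 gene, Sox102F, had a promoter summit in both. On dm3 the lists held 33 and 198 rows of chromosome 4, out of 26275 rows for replicate 2, fewer than its 30000 on dm6, and 30000 for replicate 3. No paired analysis was possible because the 2 libraries form 1 group. Depth, the control and the caller's settings are not known here, so a row missing from 1 list was not detected at unknown depth and is not shown to be absent, and background regions in both lists limit what a low-ranked row shows.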

Other observations

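The microRNA gene mir-954 shared its summit at 626110, rank 9641, with a start of mav, which encodes a TGF-beta family ligand. The antisense gene asRNA:CR43957 shared the summit at 56369, rank 6380, with ci. Within 250 bp but beyond 100 bp of a summit of the other list lay 7 further rows of the 42 of replicate 2 and 8 of the 201 of replicate 3. Over all arms it was 3248 of 30000 rows of replicate 2 and 3743 of 30000 rows of replicate 3.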
